A study of Homo sapiens with 6 samples.

Results

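The mitochondrial carriers are transport proteins that lie mostly in the inner mitochondrial membrane, and their transcripts were followed in Caco2 cells, a human colon cancer line, with and without acquired resistance to methotrexate (MTX). A gene was taken as a member when its annotated symbol was SLC25A followed by a number, or was UCP2, MPC1, MPC2, MTCH1 or MTCH2, and its brightest probe set stood for it. Signals are given as multiples of the median signal of the array, and changes as log2 of resistant over parental, ± SE with n = 3 arrays per group. The rule gave 50 of 19775 genes with a probe set of their own, read by 105 probe sets, and 40 of the 50 were bright enough to be tested, with a mean signal of at least 1 times the array median. Total RNA of Caco2 cells resistant to 10 µM MTX was hybridised to 3 Affymetrix HG U133 Plus 2.0 arrays, and RNA of the parental, MTX-sensitive cells to another 3. The resistant cells had been selected with stepwise concentrations of MTX and were grown in medium without glycine, hypoxanthine and thymidine, with dialyzed serum, whereas the parental cells were grown in Ham's F12 medium, so effects of resistance and of the medium cannot be told apart. A single resistant line was compared with its parental line. Whether the 3 samples within a group were independent cultures is not stated in the labels, so the p-values reflect the scatter of these samples alone, and that scatter may be technical.

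Most mitochondrial metabolites cannot cross the inner membrane by diffusion, and each is moved by its own carrier. The SLC25 proteins share a fold built from 3 similar repeats and mostly work as exchangers, for example of cytosolic ADP for matrix ATP. The pyruvate carrier, made of MPC1 and MPC2, is a separate family, and MTCH1 and MTCH2 are SLC25 relatives of the outer membrane. Intestinal epithelial cells rely on such carriers for respiration, for the export of citrate and aspartate, and for the supply of folate, which MTX antagonises, to the matrix.

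Of the 40 tested carriers, 2 rose and 2 fell in MTX-resistant cells at an adjusted p below 0.05 in limma (11 higher and 4 lower at an unadjusted p below 0.05, where 30.8% of all genes lay). The adenine nucleotide carrier SLC25A4 and the basic amino acid carrier SLC25A29 were the increases, and the NAD carrier SLC25A51 and the uncoupling-type carrier SLC25A30 the decreases. Over all 11849 genes tested in the same way 12.4% were called, 7.37% as higher and 5.05% as lower, so the share of carriers called, 4 of 40, was near that background. A call with a change of at least 2-fold was made for 1 carrier, SLC25A51, and for 5.54% of all genes, but SLC25A51 was bright enough to be tested only through the parental arrays and was not called without the filter on dim probe sets (adjusted p = 0.0559 in limma). Of the carriers 65.0% had a change above 0, against 51.5% of all genes, and the median log2 change was 0.16 against 0.02. Without further scaling of the arrays 52.5% of the carriers had a change above 0, against 43.0% of all tested probe sets, and the medians were 0.08 and -0.08. With quantile normalization the shares were 62.5% and 48.9%, and the medians 0.09 and -0.01. With the probe sets of each gene averaged, 59% of 39 carriers had a change above 0, against 52.3% of all genes. The medians were then 0.03 and 0.02, so the higher carrier median depended on the choice of the brightest probe set. In all, 12 carriers were higher on all 3 resistant arrays than on any parental array and 5 were lower on all 3, together 42.5% of the 40. Of all tested genes 20.2% were higher and 15.2% lower in this way, together 35.5%.

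**Figure D1:**
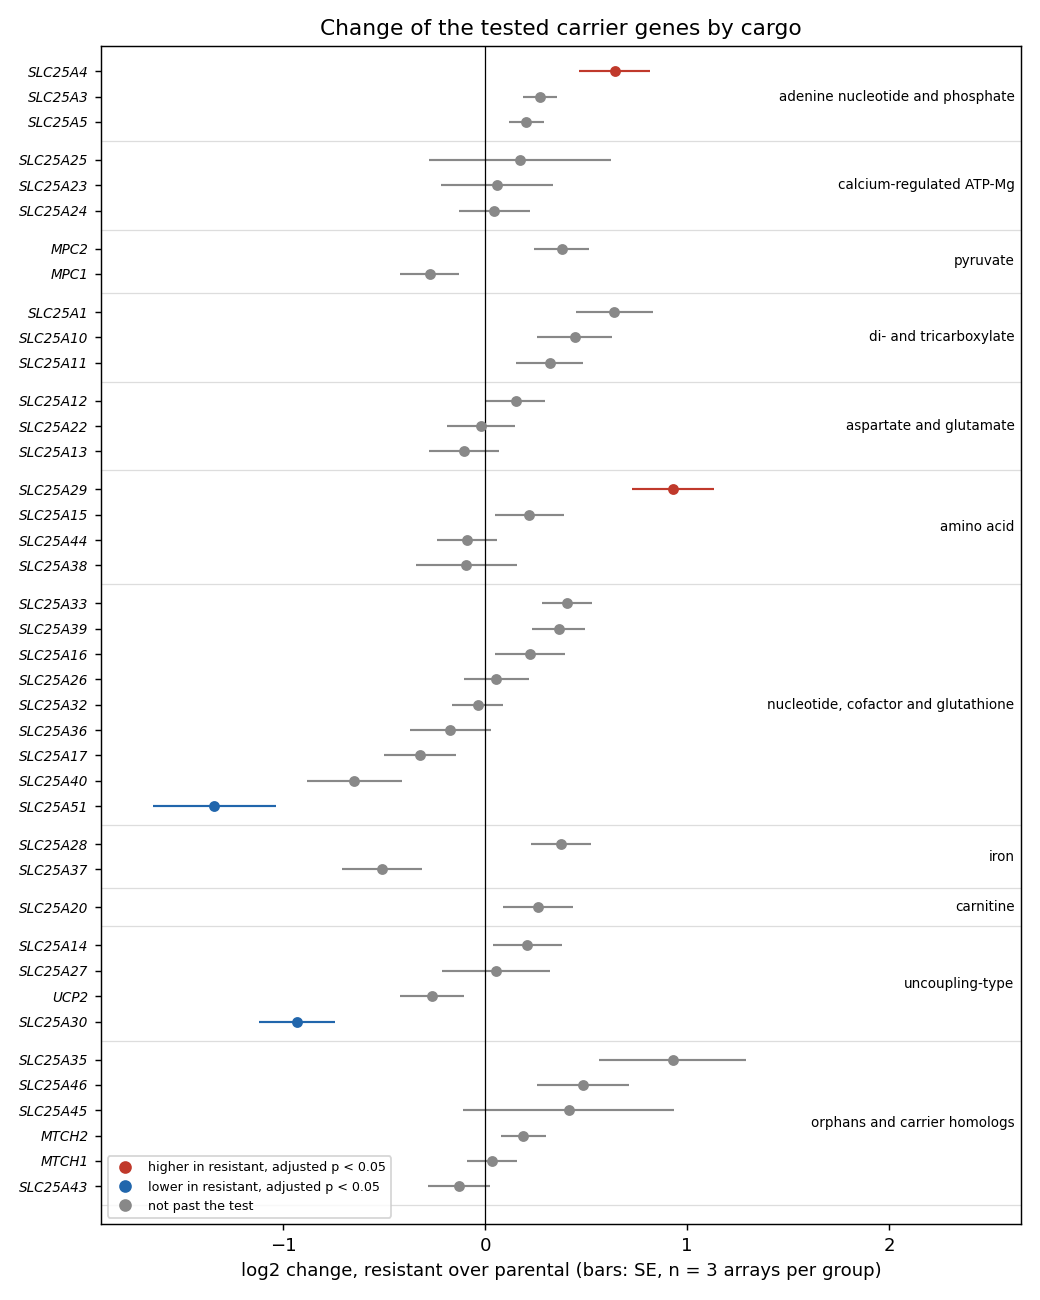
Log2 change (resistant over parental, horizontal axis) of the 40 tested carriers with its SE (n = 3 arrays per group), in blocks by cargo. SLC25A29 (0.93) and SLC25A4 (0.64) stand in red as higher, SLC25A30 (-0.93) and SLC25A51 (-1.34) in blue as lower, and the other 36 in grey were not past the test.

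The sequences around the transcription starts of 3 of these 4 genes, from RefSeq (GRCh38.p14), are shown because they are the carriers that passed the test; SLC25A30 is named only. Each line holds 250 bases before and 50 bases after the annotated start, 5′ to 3′ on the strand of the gene, at chr4:185143016-185143315 (plus strand) for SLC25A4, chr14:100306395-100306694 (minus strand) for SLC25A29 and chr9:37904078-37904377 (minus strand) for SLC25A51. Capitals mark a match to CCGGAAG, the core bound by ETS factors such as GABPA.
SLC25A4: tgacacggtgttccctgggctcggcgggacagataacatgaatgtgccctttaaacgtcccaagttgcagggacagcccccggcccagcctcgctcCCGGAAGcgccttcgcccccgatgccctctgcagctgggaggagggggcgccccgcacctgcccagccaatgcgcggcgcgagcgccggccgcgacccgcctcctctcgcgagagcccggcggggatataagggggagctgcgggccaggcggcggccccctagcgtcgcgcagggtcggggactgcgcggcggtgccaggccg
SLC25A29: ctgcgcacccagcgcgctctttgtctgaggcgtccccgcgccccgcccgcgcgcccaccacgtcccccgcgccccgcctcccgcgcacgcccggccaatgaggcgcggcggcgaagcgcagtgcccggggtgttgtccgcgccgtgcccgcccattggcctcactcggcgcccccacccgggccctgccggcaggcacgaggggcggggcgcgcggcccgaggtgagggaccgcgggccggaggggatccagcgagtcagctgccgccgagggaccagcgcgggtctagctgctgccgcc
SLC25A51: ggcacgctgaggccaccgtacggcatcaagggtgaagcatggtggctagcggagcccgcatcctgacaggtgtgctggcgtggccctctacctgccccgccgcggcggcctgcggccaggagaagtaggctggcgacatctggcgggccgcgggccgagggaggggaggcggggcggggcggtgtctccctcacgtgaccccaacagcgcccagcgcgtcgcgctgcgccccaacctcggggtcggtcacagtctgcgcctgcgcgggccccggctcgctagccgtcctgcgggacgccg
All 3 were rich in G and C, with a GC content of 73.3% for SLC25A4, 80.0% for SLC25A29 and 74.7% for SLC25A51. On either strand, CCGGAAG was found once in SLC25A4, with its first base at -154 from the start, and not in the windows of SLC25A29 and SLC25A51. It was present in 9 of the 43 carrier promoters in the RefSeq table (20.9%), among them those of SLC25A46, SLC25A24 and MTCH1, and in 10.7% of all 27305 promoters. GCATGCG, the core of sites for the nuclear respiratory factor NRF1, was found in 2 of 43 carrier promoters (4.65%), those of MTCH2 and SLC25A24, and in 4.13% of all promoters. The core AAGGTCA of the oestrogen-related receptor ESRRA was found in 1 of 43 (2.33%), that of SLC25A34, and in 3.97% of all. All 3 motifs were searched on both strands, and the match in SLC25A4 was the only one in the sequences shown, so none overlapped another. A match describes letters only.

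The arrays themselves were alike in most respects. The median signal was 10.6 to 11.5 on the resistant arrays and 11.1 to 12.8 on the parental arrays, and the arrays' number limits the precision of each value. Over the tested probe sets, r was 0.968 to 0.971 among resistant arrays, while parental array 3 stood apart from the other parental arrays (0.946 and 0.949). For 21 of the 40 carriers (52.5%), and for 47.4% of all genes, parental array 3 was the parental array nearest to the resistant mean, so it is given separately below. As to the label of the cells, EPCAM, CDH1, KRT8, KRT18, KRT19 and VIL1 were at 20.7 times the array median or more on every array, but CDX2, a transcription factor of intestinal epithelium, was at 0.0885 to 1.14 times the median. Of 7 epithelial markers 6 were tested, and KRT8, KRT18 and VIL1 rose. The summed signal of 5 fibroblast markers was 7.45 to 8.22 times the median on resistant arrays and 4.85 to 5.42 on parental arrays. Only 2 of the 5 were bright enough to be tested, and of these LUM rose. LUM lay at 0.198 to 0.352 times the median on parental arrays, so it entered the test only through the resistant arrays. The 4 leukocyte markers summed to 8.59 to 11.3 on resistant and 8.65 to 17.1 on parental arrays, and the 3 endothelial markers to 2.57 to 2.90 on resistant and 2.06 to 3.50 on parental arrays. The part of these in the carrier values was not tested.

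Adenine nucleotide and phosphate carriers supply ATP synthase with its substrates. SLC25A4, the ADP/ATP exchanger typical of heart and muscle, had signals of 19.9, 17.9 and 20.3 times the array median in resistant cells, against 13.8, 14.0 and 9.82 in parental cells. The groups did not overlap, and parental array 3 was the lowest. SLC25A4 rose 1.56-fold (0.64 ± 0.17 on the log2 scale, SE, n = 3 arrays per group, adjusted p = 0.0459). This call lay close to the threshold and was lost when any single array other than parental array 3 was left out (adjusted p from 0.0544 to 0.164), and over all 17 alternatives the adjusted p ranged from 0.0206 to 0.215. The second probe set of SLC25A4 was too dim to be tested.

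SLC25A5, the ADP/ATP exchanger of proliferating cells, gave 362, 388 and 371 times the array median in resistant cells and 324, 305 and 345 in parental cells. SLC25A3, which imports phosphate for ATP synthesis and also carries copper, gave 290.3, 305 and 289.5 in resistant and 238, 244 and 252 in parental cells. For both genes all 3 resistant arrays lay above the parental arrays, but the changes of 0.20 ± 0.09 (adjusted p = 0.163) and 0.27 ± 0.08 (adjusted p = 0.0715) were not past the test. A second, dimmer probe set of SLC25A3 gave -0.63 ± 0.33 (adjusted p = 0.255). SLC25A31, the testis form of the exchanger, had a signal of at most 0.0442 times the median on any array. The calcium-regulated ATP-Mg carriers adjust the adenine nucleotide content of the matrix. SLC25A24 gave 66.7, 50.9 and 73.5 in resistant and 50.9, 61.2 and 73.0 in parental cells, and the groups covered the same range (0.05 ± 0.18). SLC25A23 gave 0.06 ± 0.28, and SLC25A25, with 3.14 to 7.76 in resistant and 2.47 to 9.13 in parental cells, 0.17 ± 0.45.

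**Figure D2:**
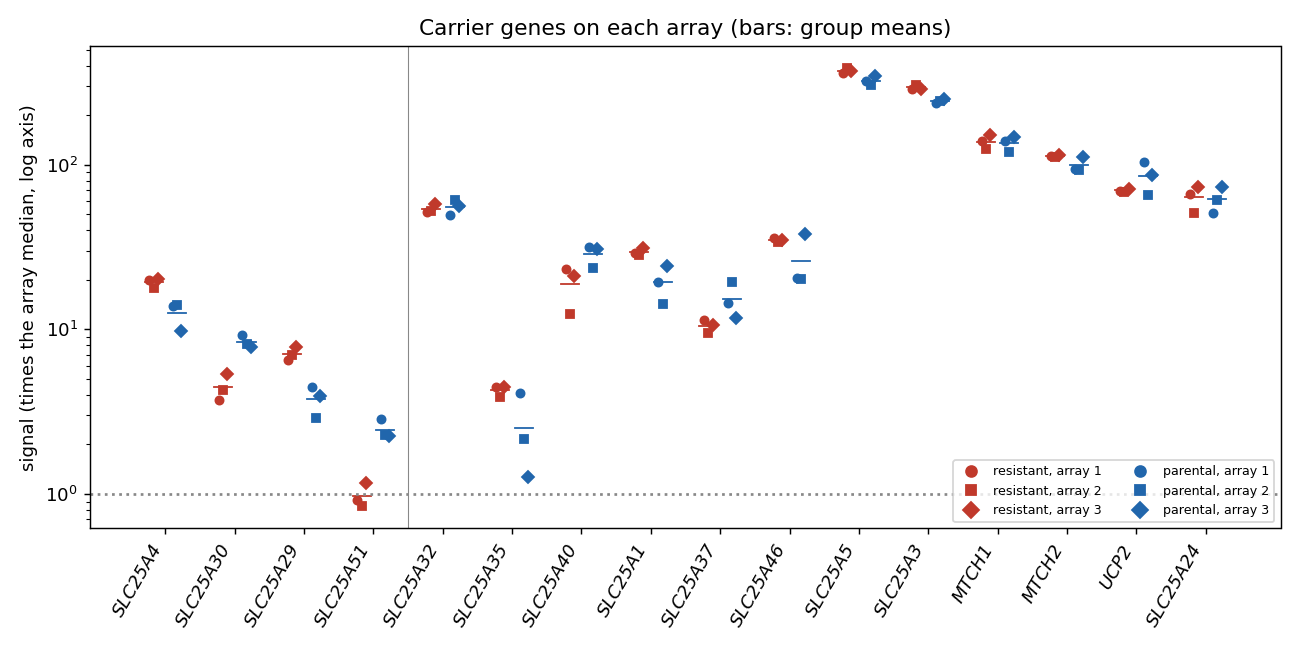
Signals of 16 carriers by array, as multiples of the array median (vertical log axis; the dotted line is 1). Red stands for resistant and blue for parental cells, the marker shape gives the array number, and bars are means of the groups. Left of the grey line stand the 4 carriers past the test, whose groups do not overlap, and in SLC25A46 parental array 3 (37.8) lies with the resistant arrays (34.0 to 36.1).

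Carriers of amino acids were read next. SLC25A29, which carries arginine, lysine and other basic amino acids into the matrix, gave 6.53, 6.94 and 7.83 times the array median in resistant cells, against 4.48, 2.90 and 3.96 in parental cells. All resistant arrays lay above all parental arrays. SLC25A29 rose 1.91-fold (0.93 ± 0.20, adjusted p = 0.0205). The probe set belongs to the type that can read several transcripts. The next brightest probe set of the gene, with 3.17, 3.48 and 2.67 in resistant and 2.29, 2.85 and 2.01 in parental cells, overlapped between groups and was not past the test (0.39 ± 0.23, adjusted p = 0.311). Without any one of the resistant arrays or without parental array 2 the adjusted p was 0.0531 to 0.0932.

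The other 3 tested amino acid carriers were not past the test. SLC25A15, the ornithine carrier of the urea cycle, gave 0.22 ± 0.17, SLC25A38, which brings glycine in for haem synthesis, -0.09 ± 0.25, and SLC25A44, a carrier of branched-chain amino acids, -0.09 ± 0.15. For SLC25A38 the parental arrays were split, with 11.3 and 12.7 on arrays 1 and 2 and 6.58 on array 3, and the resistant arrays lay between (9.66, 7.62 and 10.6). The 3 tested aspartate and glutamate carriers, a group that takes part in the malate-aspartate shuttle, included 0 past the test in limma and also 0 at an unadjusted p. Of all tested genes 12.4% and 30.8% were past these thresholds, so 0 of 3 says little. SLC25A12 gave 0.15 ± 0.15, SLC25A13 (citrin) -0.11 ± 0.17 and the glutamate carrier SLC25A22 -0.02 ± 0.17. The other probe set of SLC25A12 gave -0.10 ± 0.20, and those of SLC25A13 -0.22 ± 0.18 and 0.30 ± 0.23.

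The 3 tested carriers of di- and tricarboxylates all lay higher on every resistant array than on any parental array, as did 20.2% of all tested genes. Of these 3 carriers 0 passed the adjusted test in limma (2 at an unadjusted p). SLC25A1 exports citrate, the source of cytosolic acetyl-CoA for lipid synthesis. It gave 29.0, 28.1 and 31.4 times the array median in resistant cells and 19.5, 14.3 and 24.3 in parental cells, a change of 0.64 ± 0.19 (adjusted p = 0.0611). Without parental array 3, which was nearest to the resistant arrays, the change was 0.82 (adjusted p = 0.00212). The dicarboxylate carrier SLC25A10 gave 0.44 ± 0.19 (adjusted p = 0.158) and the oxoglutarate-malate carrier SLC25A11 0.32 ± 0.17 (adjusted p = 0.246), and its second probe set gave 0.71 ± 0.23 (adjusted p = 0.0749). SLC25A21, the oxoadipate carrier, was too dim to be tested.

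The 2 subunits of the pyruvate carrier had changes of opposite sign. MPC2 gave 48.6, 44.5 and 47.8 times the array median in resistant cells and 41.0, 31.4 and 36.6 in parental cells (0.38 ± 0.14, adjusted p = 0.108). A second, dimmer probe set of MPC2 gave 0.76 ± 0.24 (adjusted p = 0.0732 in limma). MPC1 gave 17.0, 18.2 and 18.8 in resistant cells and 24.7, 20.1 and 20.7 in parental cells (-0.28 ± 0.14, adjusted p = 0.25). In both genes the groups did not overlap. Neither was past the test, and the difference between their changes was not tested.

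Among carriers of nucleotides, cofactors and glutathione, SLC25A51 had the only call. SLC25A51, which imports NAD into the matrix, gave 0.919, 0.840 and 1.17 times the array median in resistant cells, against 2.85, 2.30 and 2.24 in parental cells. The groups did not overlap, and on 2 of the 3 resistant arrays the signal lay below the array median. SLC25A51 fell 2.53-fold (-1.34 ± 0.30, adjusted p = 0.0236), and with an offset of 0.5 added to every value the change was -1.01. Its mean signal was 0.97 times the array median in resistant cells, below the filter, and 2.46 in parental cells, so the gene entered the test through the group in which it was high. With no filter the adjusted p was 0.0559, and with the filter at 3 times the median the gene was not tested. Its second probe set gave 0.865, 1.36 and 0.757 in resistant and 1.88, 2.03 and 1.55 in parental cells (-0.91 ± 0.36, adjusted p = 0.14), again without overlap. The call was lost without parental array 1 or 2 or without resistant array 1 or 2 (adjusted p from 0.0683 to 0.0989). SLC25A51 lies on chromosome 9, and of its 10 nearest tested genes in RefSeq order 3 fell and 0 rose in limma (4 and 0 at an unadjusted p), with a median of -0.38. Over all tested genes 5.05% fell and 7.37% rose in limma (13.5% and 17.3% at an unadjusted p). A shared cause was not tested.

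SLC25A32, which carries folate into the matrix, showed no difference that these arrays could resolve. Its signals were 51.7, 52.7 and 58.1 times the array median in resistant cells and 49.7, 60.7 and 56.5 in parental cells, so that the resistant arrays lay inside the parental range. The change was -0.04 ± 0.13 (adjusted p = 0.879), with a 95% interval from -0.32 to 0.24 on the log2 scale. The pyrimidine nucleotide carriers SLC25A33 and SLC25A36 gave 0.40 ± 0.12 (adjusted p = 0.0674) and -0.17 ± 0.20 (adjusted p = 0.621). SLC25A33 had tight groups, with 29.9 to 30.7 in resistant and 22.3 to 23.3 in parental cells, and was the only carrier past the methods' t-test.

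The glutathione carrier SLC25A39 gave 40.8, 43.9 and 44.5 times the array median in resistant and 33.0, 30.0 and 37.8 in parental cells (0.36 ± 0.13, adjusted p = 0.112). Its close relative SLC25A40 gave 23.2, 12.4 and 21.0 in resistant and 31.8, 23.6 and 30.9 in parental cells (-0.65 ± 0.23, adjusted p = 0.108). On the brightest probe sets the groups did not overlap in either gene, and the signs were opposite. A second probe set of SLC25A40 gave -0.22 ± 0.22 (adjusted p = 0.553 in limma), and its groups overlapped. SLC25A26, which brings in S-adenosylmethionine, gave 0.05 ± 0.16, SLC25A16, linked to coenzyme A, 0.22 ± 0.17, and SLC25A17, the peroxisomal member of the family, -0.32 ± 0.18. The other probe sets of SLC25A16 gave 0.22 ± 0.22, -0.78 ± 0.26 and 0.02 ± 0.52, and that of SLC25A17 0.17 ± 0.20. The iron carriers, known as mitoferrins, were likewise split. SLC25A28 gave 13.5, 12.9 and 15.0 in resistant and 10.8, 9.99 and 11.1 in parental cells (0.37 ± 0.15, adjusted p = 0.133). Its second probe set gave 0.62 ± 0.21 (adjusted p = 0.09 in limma). SLC25A37 gave 11.3, 9.48 and 10.6 in resistant and 14.4, 19.5 and 11.7 in parental cells (-0.51 ± 0.20, adjusted p = 0.13). It was past the test in limma without parental array 3 (-0.69, adjusted p = 0.0109), but not without any other single array (adjusted p from 0.221 to 0.344). The next brightest probe set of SLC25A37 gave -0.47 ± 0.15 (adjusted p = 0.0842 in limma). Its other tested probe sets ran from -0.82 ± 0.33 to 0.27 ± 0.33 and were not past the test. The carnitine-acylcarnitine carrier SLC25A20, which feeds fatty acid oxidation, gave 0.26 ± 0.17.

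Of the uncoupling-type carriers, named for their likeness to the proton carrier of brown fat, 1 of 4 fell. SLC25A30, first described in kidney, gave 3.70, 4.27 and 5.37 times the array median in resistant cells, against 9.23, 8.16 and 7.80 in parental cells. All resistant arrays lay below all parental arrays, and SLC25A30 fell 1.91-fold (-0.93 ± 0.19, adjusted p = 0.0147). Its other 3 probe sets were too dim to be tested, and with all probe sets averaged the change was -0.42 (adjusted p = 0.698). The call was also lost without parental array 1 or without resistant array 1 or 2 (adjusted p from 0.0570 to 0.0791). SLC25A30 lies on chromosome 13, where 4 of its 10 nearest tested genes fell and 0 rose in limma (6 and 0 at an unadjusted p), with a median of -0.54. Over all tested genes 5.05% fell and 7.37% rose in limma (13.5% and 17.3% at an unadjusted p). A shared cause was not tested. The median of the 10 nearest genes was 0.22 for SLC25A4, of which 0 were called in limma (1 higher at an unadjusted p), and -0.10 for SLC25A29, of which 1 rose. SLC25A15, on the same chromosome as SLC25A30, gave 0.22, as above.

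UCP2 gave 69.5, 68.5 and 71.5 times the array median in resistant cells and 103, 65.8 and 86.8 in parental cells. The parental arrays spread more widely than the resistant arrays and enclosed them, with a change of -0.26 ± 0.16 (adjusted p = 0.315). SLC25A14 gave 0.21 ± 0.17 and SLC25A27 0.05 ± 0.27.

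The remaining members have no settled cargo or act in the outer membrane. SLC25A46, an outer membrane protein of mitochondrial shape, gave 36.1, 34.0 and 34.7 times the array median in resistant cells and 20.5, 20.1 and 37.8 in parental cells. The parental arrays fell apart, array 3 being above all resistant arrays, and the change was 0.48 ± 0.23 (adjusted p = 0.202). Without that array it was 0.78 (adjusted p = 0.000569), and without any other single array the adjusted p in limma was 0.341 to 0.458. A second probe set of SLC25A46 gave 0.07 ± 0.19 (adjusted p = 0.844 in limma). Its signals were 12.8, 11.4 and 13.9 in resistant and 9.14, 13.4 and 14.2 in parental cells. SLC25A35 gave 4.47, 3.89 and 4.46 in resistant and 4.10, 2.15 and 1.27 in parental cells (0.93 ± 0.36, adjusted p = 0.133). The change was 1.37 (adjusted p = 0.0283 in limma) without parental array 1, which overlapped the resistant arrays. With any other single array left out, SLC25A35 was not past the test (adjusted p from 0.183 to 0.290). MTCH2, which inserts proteins into the outer membrane, gave 113, 112 and 115 in resistant and 93.9, 93.2 and 112 in parental cells (0.19 ± 0.11, adjusted p = 0.311). MTCH1, its relative, gave 140.2, 124 and 151 in resistant and 139, 119 and 148 in parental cells (0.03 ± 0.12). SLC25A43 gave -0.13 ± 0.15 and SLC25A45 0.41 ± 0.52.

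The 10 carriers below the filter were SLC25A2, SLC25A18, SLC25A21, SLC25A31, SLC25A34, SLC25A41, SLC25A42, SLC25A47, SLC25A48 and SLC25A53. The highest signal of any of them on any array was 1.55 times the array median, for SLC25A34 on resistant array 2. These values are too low to compare groups.

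Leaving out parental array 3 changed the picture most. Then 11 carriers were past the test as higher and 4 as lower, against 16.9% and 15.3% of all genes, which together are 32.2%. The 11 were SLC25A1, SLC25A3, SLC25A4, SLC25A5, SLC25A10, SLC25A29, SLC25A33, SLC25A39, SLC25A46, MPC2 and MTCH2, and the 4 were SLC25A30, SLC25A36, SLC25A37 and SLC25A51. Without resistant array 1 or without resistant array 2, 0 carriers were past the test in limma in either direction, with 6 higher and 4 lower, and 8 higher and 2 lower, at an unadjusted p. Of all tested probe sets only 3.27% and 3.57% were called in these fits, against 10% with all arrays. Each of the 4 carriers called with all arrays kept its sign under every alternative that gave a value.

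**Figure D3:**
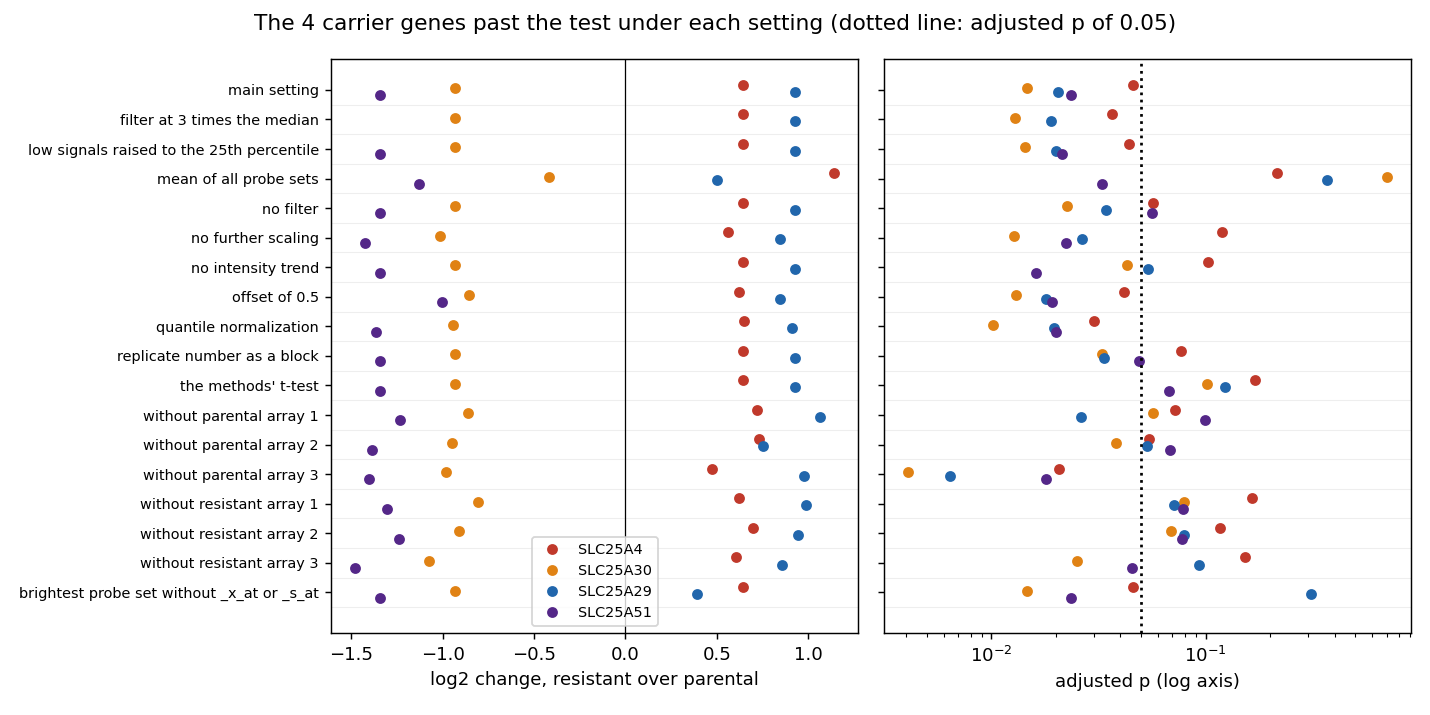
Log2 change (left, resistant over parental) and adjusted p (right, log axis, dotted line at 0.05) of the 4 carriers past the test, as reported (main setting) and under each alternative, 17 in all and 16 for SLC25A51. The signs never change, and the adjusted p of SLC25A4 runs from 0.0206 to 0.215 while that of SLC25A30 runs from 0.00408 to 0.698.

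Genes that work with the carriers were read in the same way, from lists of import machinery, outer membrane channels and enzymes that use the carriers' cargo. Carriers reach the inner membrane through the TOM complex and the TIM22 pathway. Of 16 listed genes of this machinery 14 had a probe set of their own, and all 14 were tested. Of these 0 passed in limma (1 higher and 1 lower at an unadjusted p), with a median of -0.07. The small chaperone TIMM13 gave 0.57 ± 0.16 (adjusted p = 0.0524) and TIMM10 -0.41 ± 0.13 (adjusted p = 0.0777). The outer membrane channels, through which metabolites reach the carriers, had 0 of 3 past the test in limma (2 higher at an unadjusted p). Of all tested genes 12.4% passed in limma (17.3% higher and 13.5% lower at an unadjusted p), so counts of 0 in lists this small say little. VDAC3 gave 92.0, 87.1 and 102 times the array median in resistant and 52.2, 55.6 and 93.2 in parental cells (0.53 ± 0.20, adjusted p = 0.121), parental array 3 again lying with the resistant arrays.

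Of 22 tested cargo enzymes 2 rose and 0 fell in limma (5 and 1 at an unadjusted p), with a median of 0.05. Among all tested genes 7.37% rose and 5.05% fell (17.3% and 13.5% at an unadjusted p), with a median of 0.02. GOT2, the mitochondrial aspartate aminotransferase of the malate-aspartate shuttle, gave 54.5, 56.3 and 59.4 times the array median in resistant and 26.4, 24.8 and 48.0 in parental cells, and rose 1.80-fold (0.84 ± 0.22, adjusted p = 0.0425). PDHB, a subunit of pyruvate dehydrogenase, gave 57.2, 53.3 and 57.5 in resistant and 36.9, 39.0 and 45.9 in parental cells, and rose 1.38-fold (0.47 ± 0.13, adjusted p = 0.0473). In both the groups did not overlap. PCK2, the mitochondrial enzyme that makes phosphoenolpyruvate, gave 9.83, 11.9 and 13.6 in resistant cells and 39.7, 41.3 and 9.59 in parental cells (-1.10 ± 0.47, adjusted p = 0.161), with parental array 3 below every resistant array.

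**Figure D4:**
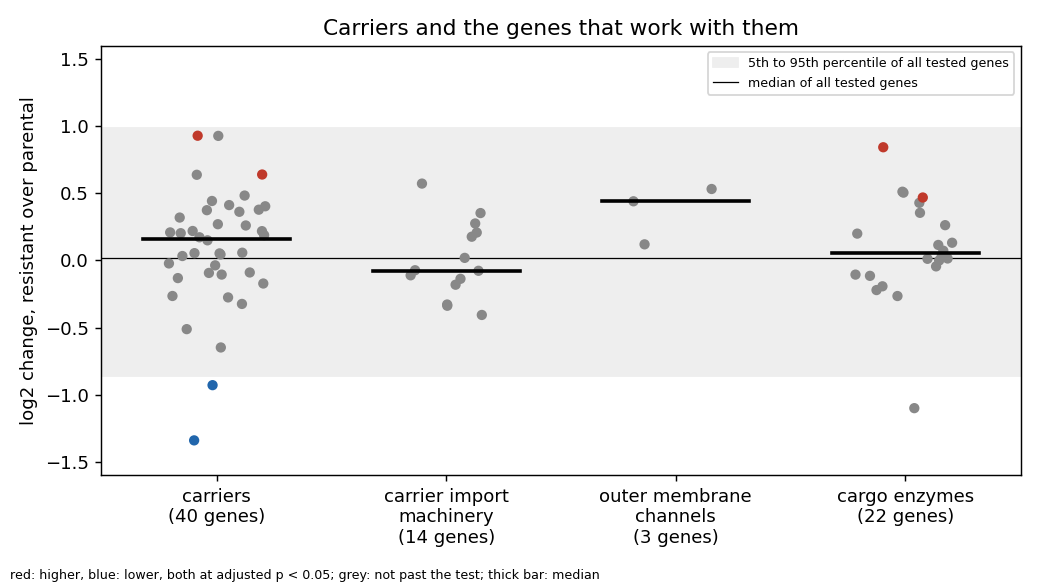
Log2 change (vertical axis, resistant over parental) of the tested carriers, of the carrier import machinery, of the outer membrane channels and of cargo enzymes, with a bar at each median and red or blue points at an adjusted p below 0.05. The medians are 0.16, -0.07, 0.44 and 0.05, the thin line is the median of all tested genes (0.02), and the grey band runs from their 5th to their 95th percentile (-0.86 to 0.99).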

How the data were processed

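One linear intensity for every probe set on every array was deposited by the authors. The submitters' processing notes name MAS5, without a version, and how far MAS5 scaled the arrays is not given in the sources used here. With extreme values trimmed, the mean intensity ran from 66.1 (resistant array 2) to 82.9 (parental array 2), so the arrays were not at 1 common level. Of 54675 probe sets, 62 controls were removed. Intensities were expressed relative to the median of their array, as in the study's methods, and log2 transformed after 10 exact zeros had been replaced by 0.05 signal units. The methods' further division by the median of the sensitive samples was not applied. Testing was limited to the 26563 probe sets whose mean over all arrays reached 1 times the array median. No detection calls were used. Gene symbols were those of the platform annotation, brought up to date by Entrez identifier with the RefSeq table (GRCh38.p14), the source also of gene order and promoters, and 41091 probe sets had 1 symbol. Sample titles gave the groups and array numbers.

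The comparison of resistant with parental arrays was made in limma (version 3.58.1, R 4.3.3) by lmFit and by eBayes with an intensity trend. Tests were two-sided and p-values were adjusted by Benjamini-Hochberg over all tested probe sets. With 3 arrays per group an exact permutation test can reach no p below 0.1, and none was used. The fit was checked on simulated data. Genes with values on each array were those past the test, SLC25A32, and, of the remaining carriers, the 5 largest changes and the 6 brightest. MPC1, MPC2, SLC25A25, SLC25A28, SLC25A33, SLC25A38, SLC25A39, GOT2, PDHB, PCK2, VDAC3, TIMM10 and TIMM13 were added after their values were seen, as were the counts of neighbouring genes and of promoter motifs. The members and lists were chosen with earlier results of these data known. Alternatives concerned the scaling (quantile normalization, or none beyond the deposited values), the filter (none, or 3 times the median) and dim signals (raised to the 25th percentile, or an offset of 0.5). Others were a fit without the trend, one with replicate number as a block, one without each array, the methods' t-test (named in a legend of the study), averaging over a gene's probe sets, and excluding the types _x_at and _s_at.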

Additional observations from a re-analysis of the deposited data

How the results depend on the processing

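The counts of 2 carriers higher and 2 lower were sensitive to most choices. The share of all tested probe sets called moved too. It was 10% in the main setting, 3.67% with no filter and 14.3% with the filter at 3 times the median. It was 8.5% with no further scaling, 4.53% without the trend, 7.88% with replicate number as a block and 1.2% in the methods' t-test. With single arrays left out it was 3.27% to 26.7%. With probe sets averaged, 7.83% of all genes were called. Averaging over the probe sets of each gene, 0 were higher and 1 lower in limma (6 and 1 at an unadjusted p). With no filter the counts were 1 and 1, and with no further scaling 1 higher. Without the intensity trend 0 were higher in limma (7 at an unadjusted p). Using the brightest probe set that is not of the types _x_at or _s_at, 1 was higher. With the filter at 3 times the median 1 was lower. The methods' t-test called 1 higher, SLC25A33, and 0 lower (10 and 2 at an unadjusted p). Leaving out single arrays gave 0 to 11 higher and 0 to 4 lower, with the highest counts without parental array 3, and 0 of both without resistant array 1 or 2. With the replicate number as a block, which the labels do not tie to a shared culture or day, 1 was higher and SLC25A4 gave an adjusted p of 0.0769. Same-numbered arrays of the 2 groups deviated from their group means with correlations of -0.018, -0.022 and -0.016. Differently numbered arrays gave 0.003 to 0.014, so no positive correlation by number was seen. With 3 arrays per group this does not settle whether the samples were paired.

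Signs turned only in carriers that were not past the test. SLC25A3 gave -0.18 with the mean of all probe sets and -0.63 with its other probe set. MTCH1 gave -0.049 with no further scaling and -0.026 with quantile normalization, and -0.056 to 0.11 with single arrays left out. SLC25A24 gave -0.26 with the mean of all probe sets, -0.037 with no further scaling, and -0.086 to 0.20 with single arrays left out. SLC25A32 gave -0.12 to 0.029 with single arrays left out. The cause of these differences was not tested. The table has no detection calls, so values near the array median, as for SLC25A51, have no measured background.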
